A study of Mus musculus with 12 samples.

Results

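The genes described here belong by symbol to families known from the cell division cycle. They are the cyclins and cyclin-dependent kinases, the CDK inhibitors, the activators of Cdk5 and the E2F and Rb family. The replication licensing factors, the mitotic kinases and the Cdc-named genes complete the set. Some members have other roles, as given below for Cdc73, Cdk8, Cdk5rap1 and the activators of Cdk5. The genes were chosen by symbol, and Cdc42, a small GTPase of the cytoskeleton, was left out. Of the 102563 peaks in both deposited tables, 543 carried one of these symbols as the gene with the nearest transcription start site (TSS). These were 280 of 55085 5-methylcytosine (5mC) peaks at 77 genes and 263 of 47478 5-hydroxymethylcytosine (5hmC) peaks at 61 genes, 81 genes together of 16293 named in the tables. Both marks were found at 57 of the genes, only 5mC at 20 and only 5hmC at Bub1, Ccna2, Cdc25a and Cdk12.

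The cells came from the cortex of mouse embryos (E14.5) that carried 1 copy each of the Btg2-RFP and Tubb3-GFP reporters. Cells negative for both reporters were sorted as proliferative progenitors (PP), cells with RFP but no GFP as differentiative progenitors (DP), and cells with GFP as neurons. DNA of the 3 cell types was enriched with an antibody against 5mC or 5hmC, and each of the 6 enriched samples has an input sample, 12 samples in all. The reporters sort by the history of Btg2 and Tubb3 expression, so each gate is a population and not a single cell type. The level of a peak below is the authors' mean log2 level in a cell type, averaged over biological replicates before deposit. The tables give no replicate values, spread or read depth beside these levels, so no difference was tested here and none carries an error. The authors' own fold changes and p-values between cell types, made from the replicates, stand in the tables and were not used. Expression values are those the authors placed beside each peak, from earlier RNA-seq of the same cell types. The tables do not name their scale.

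Markers of each cell type were read in the expression values. These come from the earlier RNA-seq, so they describe the cells sorted there and not those of the enriched samples. Of the 6 progenitor markers, all were highest in PP. The 5 markers of DP (Btg2, Eomes, Neurog2, Insm1 and Dll3) were all highest in DP. The 4 neuronal markers in the tables (Tubb3, Dcx, Neurod2 and Stmn2) were all highest in neurons. Btg2 and Tubb3 are the genes of the sorting reporters, so their order was largely set by the gates and is no support for the labels. Markers of microglia, endothelium and oligodendrocyte precursors summed lowest in neurons. The 2 microglial markers summed to 309.1 (PP), 188.8 (DP) and 74.9 (neurons), the 3 endothelial markers to 203.6, 60.2 and 35.6, and the 3 markers of oligodendrocyte precursors to 326.2, 445.5 and 36.1. These sums thus moved in the same direction as most cell cycle genes below, and their part in those values was not tested. No marker of these types was listed at 0. The 3 interneuron markers in the tables, Gad1, Dlx1 and Dlx2, summed to 898.2 in PP, to 3434.3 in DP and to 9243.5 in neurons, and their part in the values below was not tested.

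In a dividing cell, D cyclins with Cdk4 and Cdk6 phosphorylate Rb, which releases E2F factors to transcribe the genes of DNA synthesis. Before each S phase, the origin recognition complex, Cdc6 and Cdt1 load the Mcm helicase onto origins, a step called licensing. Cyclin B with Cdk1, and the Plk and Aurora kinases, then drive mitosis, and the anaphase promoting complex ends it. CDK inhibitors such as p57 (Cdkn1c) and p27 (Cdkn1b) help progenitors of the cortex leave the cycle. Cdk5 is the exception among the kinases: its activators p35 (Cdk5r1) and p39 (Cdk5r2) work in postmitotic neurons, where the kinase is needed for migration and layering. 5hmC is made from 5mC by the Tet enzymes and is abundant in neurons.

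The promoters that could be read, like most promoters, were free or nearly free of peaks of either mark. RefSeq windows of 250 bases before to 50 after the start site (build GRCm38.p6) were found for 66 of the 81 genes, 80 windows in all. Among the genes without a window were Cdk5r1, Cdkn1c, Ccnd1, Ccnd2 and Rb1. Only 1 of the 80 shared bases with a peak, a 5mC peak at Cdkl4 (1.25% of the windows). Of all 32851 windows, 362 held a 5mC peak and 413 (1.26%) a 5hmC peak. The windows were also rich in CpG, with a median of 22.5 CpG, against 18 in the windows of all genes named in the tables and 7 in all windows. Words of 2 cell cycle elements were searched on both strands: the E2F site, written as TTTGGCGC, TTTCGCGC, TTTCCCGC or TTTGCCGC, and the cell cycle homology region (CHR), written as TTTGAA. No E2F word contains the CHR word. An E2F word was in 14 of the 80 windows (17.5%), against 3.44% for all genes named in the tables and 2.26% of all windows, and a CHR word in 17 (21.2%), against 11.7% for all genes named in the tables and 17.9% of all windows. Such a match describes the letters and does not show that a factor binds there. The first 4 windows below are shown for Mcm3, the gene with the largest drop in expression value, for the loader Cdc6, for the mitotic kinase Cdk1 and for the mitotic kinase Plk1, with E2F and CHR words in capitals. In the fifth, Cdkl4, a kinase related to CDKs, the capitals mark the bases inside the 5mC peak. The windows lie at chr1:20820263-20820562 (minus strand), chr11:98907901-98908200 (plus), chr10:69352863-69353162 (minus), chr7:122159185-122159484 (plus) and chr17:80563785-80564084 (minus).
Mcm3: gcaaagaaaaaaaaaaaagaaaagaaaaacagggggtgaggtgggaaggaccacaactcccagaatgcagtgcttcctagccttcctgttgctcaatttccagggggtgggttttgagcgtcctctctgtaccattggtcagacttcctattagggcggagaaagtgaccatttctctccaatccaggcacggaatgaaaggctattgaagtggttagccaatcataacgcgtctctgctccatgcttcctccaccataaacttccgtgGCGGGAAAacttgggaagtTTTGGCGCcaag
Cdc6: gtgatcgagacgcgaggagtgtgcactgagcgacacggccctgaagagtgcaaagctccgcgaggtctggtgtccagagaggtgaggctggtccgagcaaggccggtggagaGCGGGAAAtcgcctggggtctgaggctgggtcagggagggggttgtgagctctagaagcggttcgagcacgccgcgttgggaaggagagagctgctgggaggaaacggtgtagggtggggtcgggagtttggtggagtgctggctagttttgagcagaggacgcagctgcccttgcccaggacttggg
Cdk1: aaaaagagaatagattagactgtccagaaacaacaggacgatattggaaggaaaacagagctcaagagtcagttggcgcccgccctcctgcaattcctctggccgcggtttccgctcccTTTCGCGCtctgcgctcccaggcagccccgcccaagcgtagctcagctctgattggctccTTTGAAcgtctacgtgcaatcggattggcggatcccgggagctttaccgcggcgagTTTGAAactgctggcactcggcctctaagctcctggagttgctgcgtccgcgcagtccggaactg
Plk1: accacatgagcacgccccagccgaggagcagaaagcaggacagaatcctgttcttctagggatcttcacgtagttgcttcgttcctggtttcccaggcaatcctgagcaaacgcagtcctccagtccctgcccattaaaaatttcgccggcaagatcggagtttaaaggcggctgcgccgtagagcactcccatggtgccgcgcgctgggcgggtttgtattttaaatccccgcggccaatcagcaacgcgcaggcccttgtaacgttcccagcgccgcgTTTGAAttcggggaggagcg
Cdkl4: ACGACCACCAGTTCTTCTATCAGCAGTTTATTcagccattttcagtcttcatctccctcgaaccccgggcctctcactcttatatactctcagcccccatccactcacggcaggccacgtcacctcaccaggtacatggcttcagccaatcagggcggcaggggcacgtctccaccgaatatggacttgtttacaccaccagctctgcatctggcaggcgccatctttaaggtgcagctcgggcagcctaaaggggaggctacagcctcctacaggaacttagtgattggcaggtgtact

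Expression of most of the genes was lower in neurons than in PP. A difference of at least 1.5-fold, on the log2(value + 1) scale, was counted. Of the 81 genes 42 were lower (51.9%) and 14 higher (17.3%) from PP to neurons, against 31.2% and 29.8% of all 16293 genes. The median difference was -0.65, against -0.01 over all genes. Little of this lay between PP and DP, where 9 genes were lower and 11 higher (all genes, 17.0% and 13.7%). From DP to neurons 42 were lower and 8 higher (all genes, 26.1% and 26.2%). A wider list of 81 cell cycle genes outside the symbol rule, some of them cyclin- or Cdc-named, had 68 genes in the tables, of which 52 were lower and 0 higher from PP to neurons, with a median of -2.10. Fewer cells that express a gene and less RNA per cell cannot be told apart in such bulk values.

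**Figure D1:**
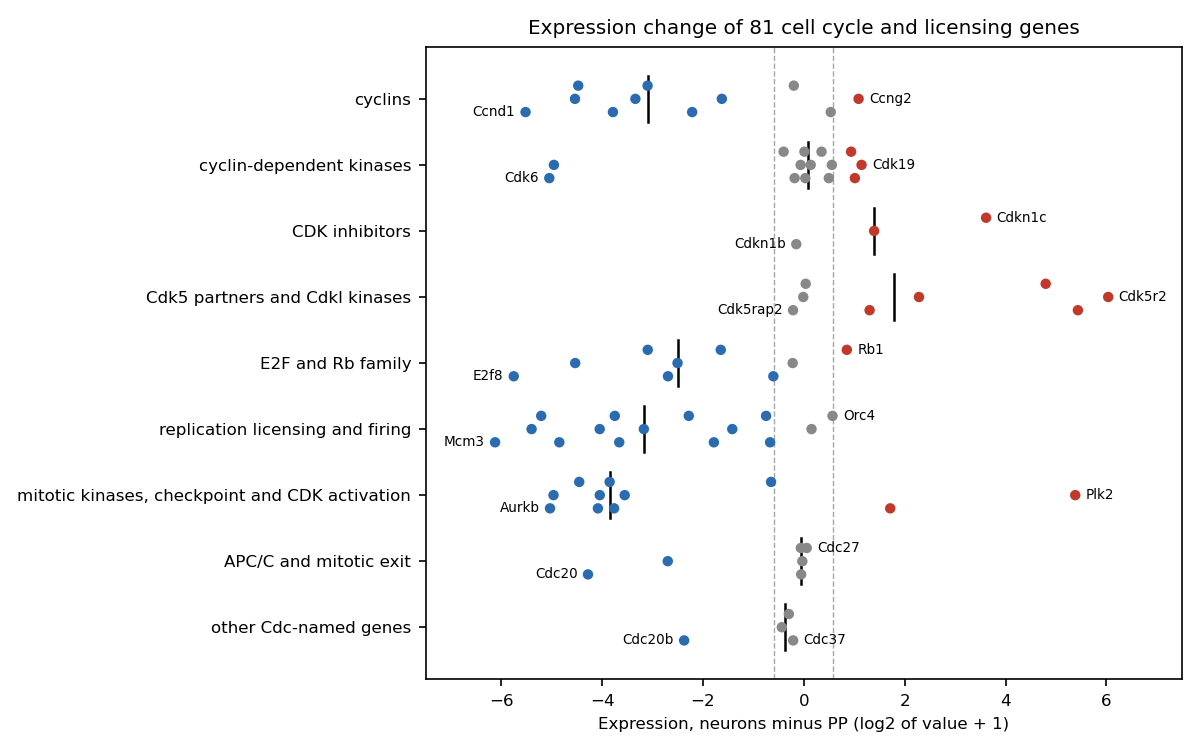
Expression difference between neurons and PP for each of the 81 genes, on the log2(value + 1) scale, by role. Each point is 1 gene (blue lower and red higher by at least 1.5-fold, grey neither), black bars are medians, dashed lines mark 1.5-fold, and the lowest and highest gene of each role are named. The licensing genes lie mostly to the left, with a median of -3.17, and Cdk5r2, Plk2 and Cdkn1c far to the right.

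Replication licensing and firing genes formed the most uniform group, with 13 of 15 lower in neurons than in PP, 0 higher and a median of -3.17. Mcm3, a subunit of the replicative helicase, had a value of 13411 in PP that dropped to 7441 in DP and 191.1 in neurons, a difference of -6.13. Mcm10, which helps to activate the helicase, went from 2856 and 2552 to 66.6 (-5.40). The loaders Cdc6 (2580, 1715 and 68.7) and Cdt1 (5176, 3132 and 178.4) were already lower in DP than in PP, by -0.59 and -0.72. Mcm3 and Mcm4 had likewise a lower value in DP, and these 4 were the genes of the group past 1.5-fold between PP and DP. Orc3 and Orc4, subunits of the origin recognition complex, were the 2 genes that were not lower, with differences of 0.15 and 0.57 from PP to neurons.

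The cyclins and mitotic kinases were also low in neurons. Ccnd1 (cyclin D1) had 7630 (PP), 4161 (DP) and 165.2 (neurons), a difference of -5.52, and Ccnd2, the other major D cyclin of cortical progenitors, had 63967, 46741 and 7459 (-3.10). The mitotic cyclin Ccnb1 and the cyclin Ccna2 had the higher progenitor value in DP, though within 1.5-fold of PP. Ccnb1 had 2286 and 3263 in the progenitors and 97.3 in neurons, and Ccna2 had 7896, 8704 and 353.9. Of the 11 cyclins 8 were lower from PP to neurons and only Ccng2, an unconventional cyclin linked to cell cycle arrest, was higher (3464, 7505 and 7348). Of the 11 genes of mitotic kinases, checkpoint and CDK activation 9 were lower, among them Aurkb at -5.04, and Plk2 and Plk5 were higher. The Plk5 values were very low throughout (2.6, 7.2 and 10.8). Plk2, a Polo-like kinase known in neurons for its role at synapses, had 158.0, 201.5 and 6630 (5.38).

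Of the 14 cyclin-dependent kinases, Cdk6 and Cdk1 were lower in neurons. Cdk6 had 4533, 2817 and 135.9 (-5.05), and Cdk1 had 3410, 4162 and 108.7 (-4.96). Cdk4 was at 18374, 22904 and 16173, a difference of -0.18, and the median of the 14 was 0.08. In the E2F and Rb family 7 of 9 genes were lower. E2f8, a repressor E2F, had 3531, 2674 and 64.4 (-5.75), E2f7, its close relative, had 4057, 4076 and 625.2 (-2.70), and the activator E2f1 had 3825, 4558 and 672.6 (-2.51). Rb1, the retinoblastoma protein, was higher in neurons (2279, 3903 and 4112, 0.85). The APC/C activator Cdc20 had 5373, 5734 and 275.1 (-4.28), whereas the APC/C subunits Cdc16, Cdc23, Cdc26 and Cdc27 lay between -0.06 and 0.06.

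Beside Plk2, the genes with the largest positive differences were inhibitors of the cycle, partners of Cdk5 and a Cdkl kinase. Cdk5r1 had 1255, 6059 and 34896 (4.80), and Cdk5r2 had 9.9, 64.4 and 714.4 (6.04). Cdkl2, a kinase related to CDKs, had 7.4, 4.5 and 362.4 (5.44). Cdkn1c was higher in DP than in PP (408 and 4675) and was at 5002 in neurons, a PP to neurons difference of 3.61. Cdkn1a (p21) had 127.1, 292.5 and 335.4 (1.39), and Cdkn1b had 10428, 13412 and 9393 (-0.15). Of the 8 Cdk5 partners and Cdkl kinases 5 were higher and 0 lower. Cdc73, a subunit of the Paf1 complex of transcription elongation, stands beside 2 different sets of expression values, and the set at 41 of its 42 peaks was used (390.2, 366.7 and 317.1). The set at the remaining peak was 3955, 3539 and 2541, a difference of -0.64 from PP to neurons, with which Cdc73 would count among the genes lower in neurons.

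The E2F words described above were unevenly spread over these genes. Of the 42 promoter windows of genes lower in neurons 13 (31.0%) held an E2F word, against 1 of 27 windows of genes past neither limit and 0 of 11 of genes higher in neurons. Over all genes lower in neurons that are named in the tables the share was 4.34%. The CHR word was in 13 of the 42 windows (31.0%), and in 14.4% over all genes lower in neurons. The 42 windows belong to 34 genes, and the overlapping windows of Cdc7 hold the same CHR word. The genes were chosen by family names that include known E2F targets, so these shares describe the families.

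The peaks lay mostly far from the start sites. For 5mC 39.6% were inside the gene, 39.3% upstream and 21.1% downstream, close to the 40.2%, 39.5% and 19.7% of all peaks. For 5hmC the shares were 36.5%, 34.6% and 28.9%, against 36.2%, 42.1% and 21.4%. Within 1 kb of the TSS were 2 of 280 5mC peaks (0.714%, all peaks 2.99%) and 5 of 263 5hmC peaks (1.90%, all peaks 3.21%). More 5hmC peaks than in the whole table lay over 100 kb away (22.8% against 17.4%), and 25 of those 60 belonged to Cdc73. Against RefSeq genes, 80 of the 5mC and 57 of the 5hmC peaks lay within another gene only and 88 and 109 in no gene. The naming of a peak by the nearest TSS therefore says where it is and not which gene it acts on.

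The 7 peaks within 1 kb of a TSS had small differences with few exceptions. The 5mC peak of Cdkl4, 304 bp upstream of the TSS, had levels of 5.52 (PP), 5.26 (DP) and 5.28 (neurons). The 5mC peak of E2f6, a repressor E2F, 523 bp upstream, had 3.54, 3.92 and 2.99. After centring, its difference from DP to neurons was -0.76, past 1.5-fold. The 5hmC peak inside Cdk5rap2, a centrosomal protein needed for progenitor divisions, 523 bp from the TSS, went from 4.59 and 4.25 to 3.72, a centred difference of -0.79 from PP to neurons. At Cdk20, Cdk5rap1, Cdc14a and Cdk7 the 5hmC peaks stayed within 1.5-fold at every step, with PP to neurons differences from -0.39 to 0.07.

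Over the whole gene set, the shares of peaks past 1.5-fold lay near those of all peaks. Differences were centred on the median difference of all peaks of the mark, which was -0.18 for 5mC and -0.02 for 5hmC from DP to neurons, and at least 1.5-fold (0.585 in log2) was counted. From PP to DP, 9 of 280 5mC peaks were lower (3.21%, all peaks 5.44%) and 16 higher (5.71%, all peaks 4.60%). From DP to neurons 32 were lower (11.4%, all peaks 9.36%) and 14 higher (5.00%, all peaks 5.12%). From PP to neurons 28 were lower (all peaks 10.2%) and 17 higher (6.07%, all peaks 5.00%). For 5hmC from PP to DP 15 of 263 peaks were lower (5.70%, all peaks 4.68%) and 39 higher (14.8%, all peaks 11.2%). From DP to neurons 18 were lower (6.84%, all peaks 7.07%) and 36 higher (13.7%, all peaks 16.5%). From PP to neurons 21 were lower (7.98%, all peaks 7.71%) and 56 higher (21.3%, all peaks 22.1%). The median member differences lay between -0.02 and 0.04 in all 6 comparisons. At these genes, as over all peaks, more 5hmC peaks were higher than lower in DP and neurons.

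**Figure D2:**
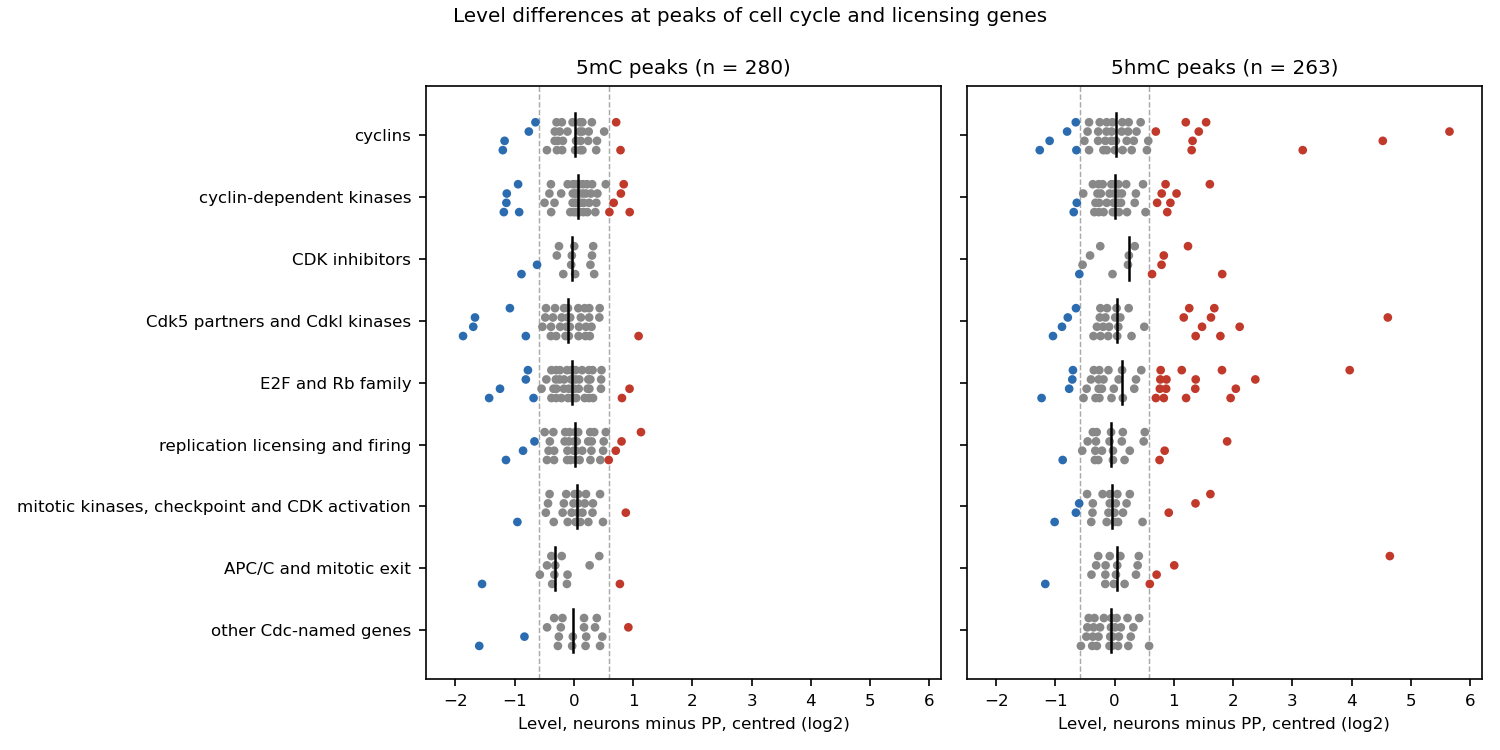
Centred level difference between neurons and PP for each of the 280 5mC peaks (left) and 263 5hmC peaks (right), by role of the nearest gene. Each point is 1 peak (blue lower and red higher by at least 1.5-fold, grey neither), black bars are medians and dashed lines mark 1.5-fold. The medians lie near 0, and the 5hmC peaks farthest to the right rest on PP levels under 1.5.

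Counts by role are given beside the shares of all peaks, and no difference between roles was tested. For 5hmC from PP to neurons, where 22.1% of all peaks were higher, 16 of 40 peaks of the E2F and Rb family were, of which E2f7 held 8 and E2f8 held 3. All 6 5hmC peaks of Cdk5r1 were higher, out of 9 of 31 for the Cdk5 partners and Cdkl kinases. Among the CDK inhibitors 5 of 13 were higher, and all 5 were peaks of Cdkn1c. Cyclins had 9 of 43 higher from PP to neurons, near the share of all peaks, and 11 of 43 from PP to DP (all peaks 11.2%). From PP to neurons the licensing genes had 3 of 23 and the other Cdc-named genes 0 of 29. For 5mC from DP to neurons, where 9.36% of all peaks were lower, 8 of 50 peaks of the E2F and Rb family, 7 of 37 of the Cdk5 group and 3 of 40 of the licensing genes were lower. Peaks of 1 gene share a locus, so these counts are not counts of independent events.

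The largest 5hmC differences came from 6 peaks with a PP level under 1.5, at Ccna1 (2 peaks), Ccnb1, Cdk5r1, E2f7 and Cdc14a. Only 554 of the 47478 5hmC peaks were as low in PP. Of these, 105 were listed at the lowest PP level of the table, -0.05, and the Cdk5r1 peak was among them. The size of these 6 differences therefore depends on how low levels were set, and they are given as levels.

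Ccna1 (cyclin A1, a cyclin best known from the germ line) held 2 of them. Inside the gene, 6.5 kb from the TSS at chr3:55048498-55048622, the 5hmC level was 0.35 for PP, 2.72 for DP and 5.92 for neurons. A second peak inside the gene at chr3:55049759-55049911 had 0.40, 2.98 and 4.84. Both levels were higher at each step, and both peaks lie on a 5mC peak with the opposite order. The 5mC levels were 5.19, 5.06 and 3.82 at the first and 6.25, 5.97 and 4.91 at the second. The expression value of Ccna1 was low throughout (67.3, 60.0 and 21.1).

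At Cdk5r1 all 5hmC peaks differed in the same direction. The gene lies at chr11:80477023-80481184. By RefSeq coordinates 2 of its 6 5hmC peaks lie inside it, 3 within the neighbouring gene Myo1d and 1 within Psmd11, and of its 6 5mC peaks 1 lies inside it, 3 within Myo1d and 1 within Psmd11. The 5hmC peak 6.2 kb downstream of its TSS had levels of -0.05 (PP), 1.99 (DP) and 4.48 (neurons). Of the 2 peaks inside the gene, 1 had 3.19, 4.13 and 4.48 and the other 2.78, 3.84 and 4.81. The upstream peak at -4.7 kb had 4.27, 5.13 and 5.87. The 2 farthest downstream had 4.15, 4.57 and 5.33, and 3.40, 2.99 and 4.79. All 6 were highest in neurons, and the 5 with a PP level above 1.5 had centred PP to neurons differences from 1.26 to 2.11. Of the 6 5mC peaks 3 were lower by at least 1.5-fold from PP to neurons. The one inside the gene, 1.6 kb from the TSS, had 4.69, 4.72 and 2.82, and the one 11.0 kb downstream had 5.28, 4.46 and 3.24. The latter was lower at both transitions, as were 390 of all 55085 5mC peaks, and was the 1 such peak of the 280. The other 3 had differences of -0.53, -0.09 and -0.10.

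**Figure D3:**
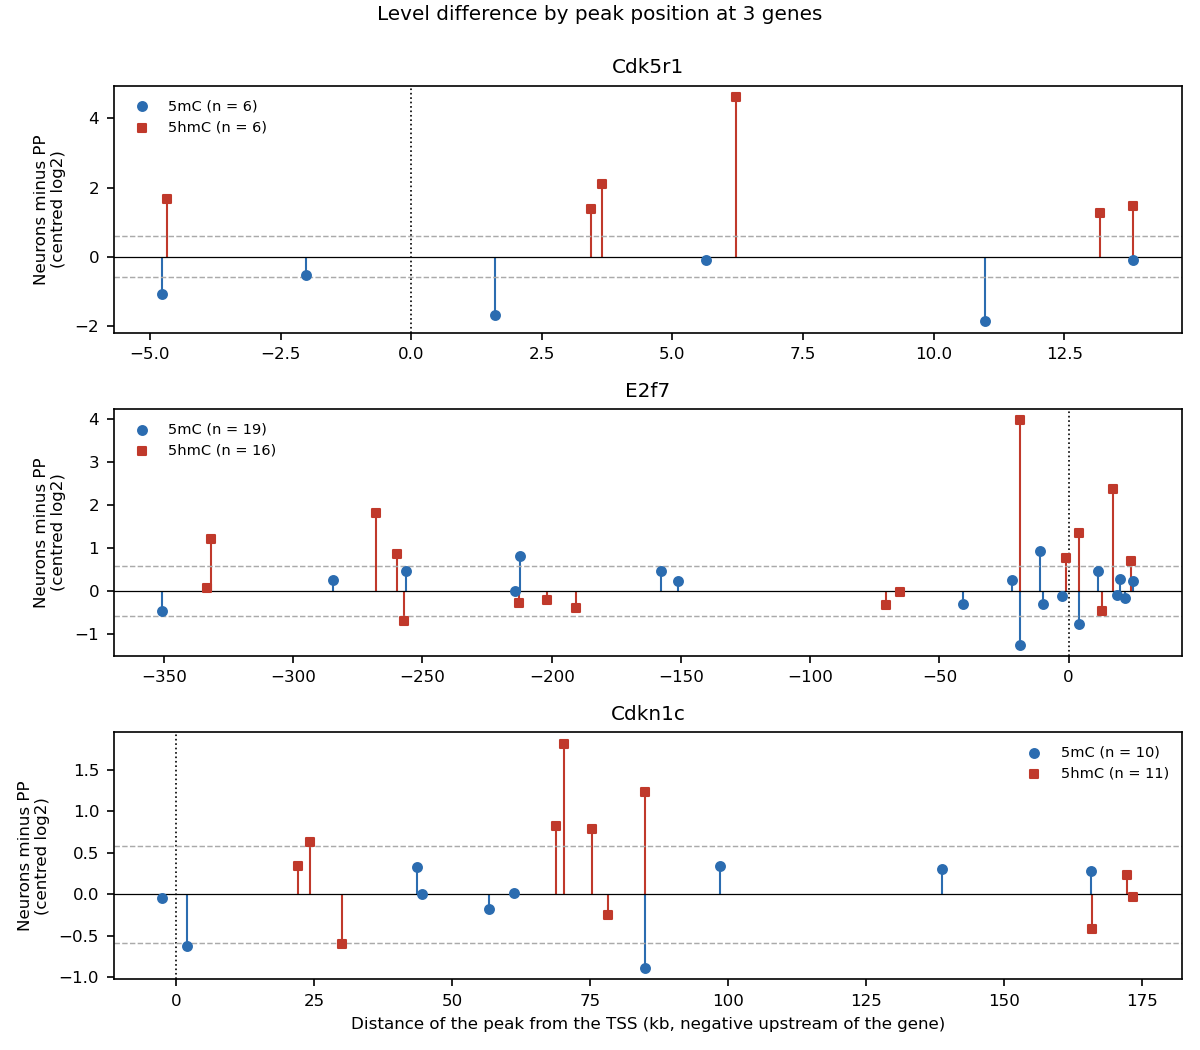
Centred level difference between neurons and PP (log2) of each peak by its distance from the TSS in kb, for Cdk5r1, E2f7 and Cdkn1c, which were chosen after their values were seen. Circles are 5mC and squares 5hmC peaks, dashed lines mark 1.5-fold and the dotted line the TSS. At Cdk5r1 all 6 5hmC peaks lie above the line, the highest of them with a PP level under 1.5, and at E2f7 8 of 16 do.

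E2f7 had 35 peaks, spread up to 350.6 kb from its TSS. At chr10:110726537-110726778, 18.8 kb upstream, 5hmC had levels of 1.13, 3.14 and 5.02 in that order of cell types, and the 5mC peak within it had 4.42, 4.34 and 2.998. A second pair inside the gene, 3.9 kb from the TSS, had 5hmC at 3.39, 3.93 and 4.67 and 5mC at 4.97, 4.77 and 4.02. The 5hmC peak 17.0 kb inside the gene had 2.48, 4.28 and 4.77. Other E2f7 peaks went the other way: the 5mC peak 11.0 kb upstream had 3.99, 3.96 and 4.75, and the one 256.4 kb upstream was highest in DP (3.86, 5.00 and 4.16). The 5hmC peak 257.2 kb upstream had 4.39, 3.99 and 3.60. E2f8 resembled this mixture. By RefSeq coordinates its peaks lay outside the gene, many of them within Nav2. Most E2f7 peaks also lay outside that gene, some of them within Nav3, and its upstream pair lay within Gm36751. The 5hmC peak 128.7 kb upstream of E2f8, within Nav2, had 4.46, 4.49 and 3.15, a centred DP to neurons difference of -1.32. The 5mC peak 32.9 kb upstream of E2f8 had 4.75, 3.89 and 3.77.

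At Cdkn1c, 21 peaks were named and nearly all lay downstream. By RefSeq coordinates 8 of the 10 5mC and 8 of the 11 5hmC peaks were not in Cdkn1c but within Kcnq1, the next gene of this imprinted cluster. One 5mC peak, at chr7:143376035-143376205, 84.9 kb downstream of the Cdkn1c TSS, had 4.23, 2.88 and 3.18, the lowest 5mC difference from PP to DP of the 280 (-1.35). The 5hmC peak on it had 4.42, 4.85 and 5.58. The 5hmC peak 70.2 kb downstream went from 2.43 in PP to 4.26 in DP and 4.16 in neurons. The median PP to DP difference over the 11 5hmC peaks was -0.02. The 1 peak inside Cdkn1c, a 5mC peak 2.1 kb from the TSS, had 4.82, 4.80 and 4.02. Cdkn1a had a single 5mC peak, with 6.06, 5.86 and 5.85. The 2 5mC peaks of Cdkn1b had 5.08, 5.34 and 4.65, and 4.52, 5.09 and 4.07. Its 2 5hmC peaks had 4.50, 4.65 and 4.65, and 5.12, 4.60 and 4.50.

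The D and E cyclins, with the kinases that they bind, showed mostly small differences at their peaks. The 6 5hmC peaks of Ccnd1 lay 94.0 to 169.8 kb upstream. At 159.3 kb upstream the 5hmC level was 7.94, 7.94 and 7.72, rank 31 in mean level of all 5hmC peaks, and at 160.6 kb upstream it was 7.89, 7.78 and 7.67. Another 2 were highest in DP, with 3.95, 4.68 and 4.01, and 4.97, 5.59 and 4.83. The 5mC peak that overlaps the 5hmC peak 159.3 kb upstream had 5.44, 5.26 and 4.62, a centred difference of -0.65 from PP to neurons, and the other 4 5mC peaks of Ccnd1 lay within 1.5-fold. At Ccnd2 the 5hmC peak 25.1 kb upstream had 3.62, 4.48 and 4.85, and the 5mC peaks lay within 1.5-fold. Ccne1 (cyclin E1) had 5hmC peaks of both kinds. The peak 18.4 kb upstream went from 4.11 to 5.39 and 5.58, and the one 11.1 kb upstream from 5.13 to 4.71 and 4.39. Cdk4 had 1 peak, a 5mC peak inside the gene with 4.01, 3.61 and 2.90. Of the 9 peaks of Cdk6, 5hmC at 11.5 kb inside the gene had 4.57, 4.75 and 5.21, and 5mC 40.8 kb upstream had 6.40, 6.63 and 6.83, both past 1.5-fold from PP to neurons. No peak was named by Cdk2.

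At Ccnb1 and Cdc14a the levels of 1 5hmC peak each were again higher at each step from a low PP level. The Ccnb1 peak 16.7 kb upstream had 1.14, 3.51 and 4.24. The Cdc14a peak 83.6 kb inside the gene had 0.34, 2.20 and 4.90. Cdc14a belongs to a phosphatase family known from mitotic exit in yeast, and its expression values were 2363, 1937 and 362.7. Another of its 15 5hmC peaks, 7.2 kb inside the gene, went from 5.15 to 4.14 and 3.90. From PP to neurons 5 of the 43 5hmC peaks of cyclins were lower (all peaks 7.71%). Ccng1, a p53 target, held 4 of these 5 among its 6 5hmC peaks, with 0 higher and a median of -0.72. Its peak 101.6 kb upstream had 5.02, 4.65 and 3.67. Ccnd3 had a peak inside the gene with 4.54, 4.84 and 4.00.

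The peaks of the other E2F regulators and of the licensing genes differed in both directions. E2f1 had 5hmC levels of 4.46, 4.31 and 3.61 inside the gene and of 4.82, 4.56 and 4.47 upstream, and 5mC of 6.14, 5.71 and 5.80. E2f3 had a single 5mC peak (5.17, 4.99 and 5.25). At Rb1 the 5hmC peak 12.5 kb inside the gene had 3.84, 4.50 and 4.89, and the 5mC peak 21.9 kb upstream had 4.30, 4.84 and 3.83. E2f6 had the lowest 5mC difference of the set from DP to neurons, at 23.1 kb downstream (3.61, 4.20 and 2.01, centred -2.01). Mcm2 had only 5mC peaks, 4 inside the gene with PP to neurons differences from -0.35 to -0.07. Mcm10 had a 5hmC peak 2.9 kb upstream with 2.52, 3.36 and 4.34, the largest 5hmC difference of the licensing genes (1.90). The 5mC peak of Mcm9 21.9 kb upstream was highest in DP (3.18, 4.34 and 3.31). The 5hmC peak inside Mcm5 was also highest in DP (3.97, 4.46 and 3.56), while a 5mC peak inside it had 3.80, 4.24 and 4.76. At Cdc6 the nearest upstream 5mC peak had 4.62, 4.40 and 3.78, and the 5hmC peak inside the gene 4.40, 4.89 and 5.16. At Cdt1 the 5hmC peak inside the gene had 4.46, 4.60 and 5.14, and its 2 5mC peaks had PP to neurons differences of 0.00 and -0.06.

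Several of the largest single differences belonged to genes with other roles. The 5mC peak inside Cdk8, a kinase of the Mediator complex, had 4.36, 4.88 and 3.003. Inside Cdk5rap1, a tRNA-modifying enzyme, 5mC dipped in DP (4.68, 3.35 and 4.30). At Cdk20, 25.6 kb downstream, it also dipped (4.32, 3.74 and 4.68). Inside Cdk14, a membrane-associated kinase, a 5mC peak was highest in DP (3.07, 4.03 and 2.92). At Plk2, 166.1 kb downstream, 5mC had 4.34, 4.17 and 5.04, and 5hmC 83.9 kb downstream had 4.40, 3.18 and 3.66. For 5hmC, Aurkb (6.7 kb downstream) had 4.54, 3.58 and 3.45 and Plk5 (inside) had 5.19, 4.23 and 4.51. Near Cdc73, 5mC 13.6 kb downstream had 3.66, 4.77 and 4.41.

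A peak inside Cdk5rap2 at chr4:70378131-70378238 had the highest 5hmC mean level of all 47478 peaks, with 10.42, 10.33 and 10.10. The 5mC peak at the same place had 10.81, 10.82 and 10.91, rank 3 of 55085. Levels were not divided by the width of the peak, which was 107 and 101 bp here. Neither mark differed by 1.5-fold between cell types at this site. The authors left out peaks that overlap annotated repeats, and the part of any other repeated sequence in such high levels was not tested.

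The 5 genes with the most peaks held 146 of the 543 peaks (26.9%), and the median over the 81 genes was 4. Cdc73 led with 14 5mC and 28 5hmC peaks, the farthest 1127 kb from its TSS and none inside the gene. None of its 28 5hmC peaks passed 1.5-fold from PP to neurons. E2f7 had 35, Cdkl4 25, Cdk1 23, and Cdc14a and Cdkn1c 21 each. None of the Cdk1 peaks was inside the gene, and 17 of the 23 were 5mC. A 5mC peak named by Cdkl4 but lying within the neighbouring gene Map4k3, 41.3 kb upstream, had levels of 8.69, 8.73 and 8.60.

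At 41 places a 5mC and a 5hmC peak of the set overlapped by at least 1 bp, at 29 genes. These were 14.6% of the 5mC and 15.6% of the 5hmC peaks, against 12.2% and 14.2% in the whole tables. At 6 of the 41 pairs 5mC was lower and 5hmC higher in neurons than in PP by at least 1.5-fold each (14.6%, against 18.8% of all 6727 pairs), and at 0 pairs the reverse. The 6 lay at 4 genes: Ccna1 and E2f7 with 2 pairs each, Cdk5r1 and Cdkn1c. Both Ccna1 pairs and the upstream E2f7 pair rest on 5hmC peaks with a PP level under 1.5. The size of those 5hmC differences depends on how low levels were set. The Cdk5r1 pair, 4.8 kb upstream, had 5mC at 6.24, 5.71 and 4.99 and 5hmC at 4.27, 5.13 and 5.87. At each step 5mC was thus lower and 5hmC higher. From PP to DP 0 of the 41 pairs had both differences past 1.5-fold in these directions (all pairs 3.20%), and from DP to neurons 4 did (9.76%, all pairs 12.5%). Over the 41 pairs the Spearman correlation of the 5mC and 5hmC differences from PP to neurons was -0.45, and over all 6727 pairs -0.51. Pairs share loci and the same sorted cells, so these are descriptions.

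**Figure D4:**
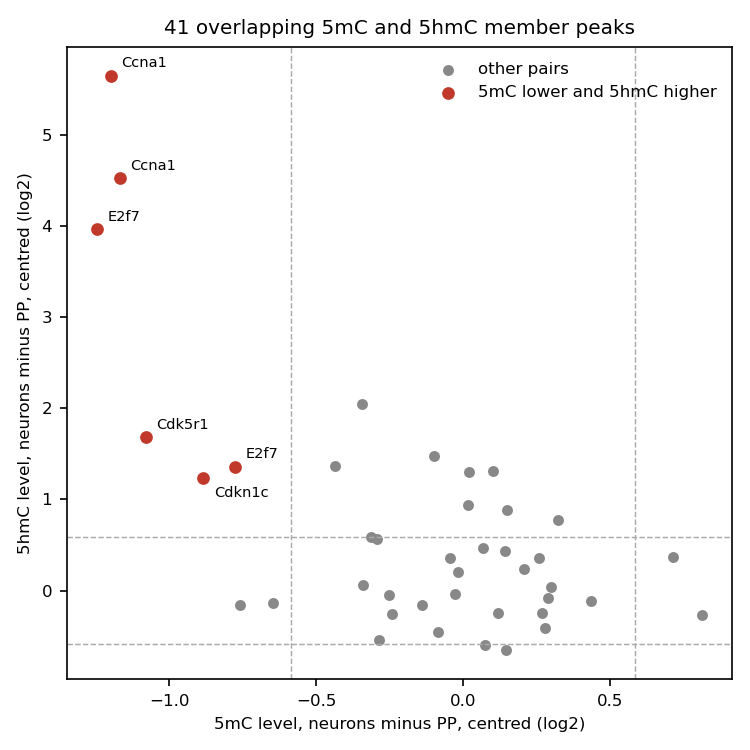
Centred level difference between neurons and PP (log2) of 5hmC against that of 5mC at the 41 overlapping pairs, each point 1 pair and dashed lines at 1.5-fold. The 6 named pairs lie in the upper left, with lower 5mC and higher 5hmC, and no pair lies in the lower right.

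**Figure D5:**
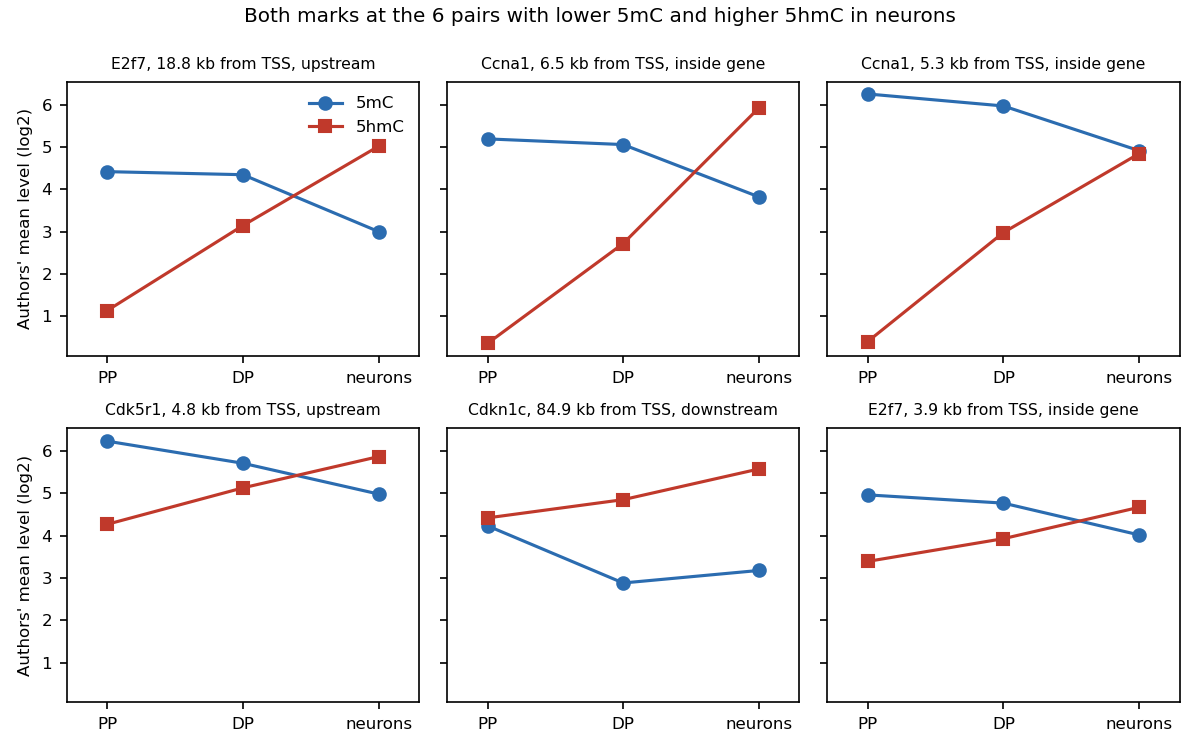
The authors' mean log2 levels of 5mC (circles) and 5hmC (squares) in PP, DP and neurons at the 6 pairs. 5hmC was higher at each step in all 6, and 5mC was lowest in neurons at all but Cdkn1c, where it was lowest in DP.

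Peaks with higher 5hmC were found beside genes of either direction of expression. Peaks of the genes lower in neurons were higher in 5hmC at 30 of 121 peaks (24.8%), and peaks of the genes higher in neurons at 15 of 50 (30.0%). E2f7 held 8 of the 30, and Cdk5r1 and Cdkn1c held 6 and 5 of the 15. For genes past neither limit the count was 11 of 92, with 28 of the 92 peaks from Cdc73, which its other set of expression values would move to the lower genes. In the whole table the 3 shares were 20.0%, 24.8% and 21.0%. For 5mC 14 of 154 peaks (9.09%) of the lower genes and 6 of 43 (14.0%) of the higher genes were lower, against 8.66% and 12.9% in the whole table. Of those 6 peaks Cdk5r1 held 3 and Cdkn1c 2. Cdk5r1, with 5hmC higher, 5mC lower and expression higher in neurons, and E2f7, with the same peak differences at 2 pairs and expression lower, are examples. Most of the peaks named by either gene lie outside it.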

How the data were processed

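5mC and 5hmC were enriched with antibodies (MeDIP and hMeDIP) from DNA of PP, DP and neurons that had been barcoded and pooled before precipitation. Per the labels and the study's methods, the authors aligned reads to mm10 with BWA 0.7.8-r455 and called peaks with SICER 1.1. They left out peaks that overlap annotated repeats and compared the others with DiffBind. The deposited log2 values are the authors' mean normalized level of each peak per cell type, averaged over replicates, so the tables give no depth, spread or replicate values. The deposited expression values, treated as a score because the tables do not name their scale, come from earlier RNA-seq by the authors, which the study plots as FPKM; that the columns hold FPKM is not stated. Distances to the TSS are a deposited score in bp. The authors' fold changes and p-values between cell types were not used.

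Levels were subtracted (later minus earlier cell type) and centred on the median over all peaks of the mark. Differences of at least 1.5-fold were counted beside the share of all peaks, and no test was made. Expression was compared as log2(value + 1), with the first row of each symbol. Peaks overlapping by 1 bp formed pairs. Named are the 4 peaks with the largest positive and negative difference per mark and step, the highest peak per mark, every peak pair with lower 5mC and higher 5hmC in neurons, every peak within 1 kb of a TSS, 16 preset genes summarised by their peaks, the 6 largest expression drops and gains at a value of at least 100, and the 5 genes with most peaks. Genes and lists were chosen with earlier results of these data known. Promoters were from RefSeq (GRCm38.p6). Python 3.11.15 and pandas 2.3.3 were used, and the steps were tested on simulated data.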

Additional observations from a re-analysis of the deposited data

How the results depend on the processing

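The counts of peaks past 1.5-fold depended on the limits set, and the 4 counts below are given in the order 5mC lower, 5mC higher, 5hmC lower and 5hmC higher. At least 2-fold was reached by 2, 3, 2 and 14 peaks at the PP to DP step, and by 9, 3, 1 and 7 at the later step. With peaks at or above the median mean level alone, the counts were 1, 1, 0 and 11 at the first step, and 5, 2, 5 and 13 at the later one. With peaks inside the gene or within 10 kb of its TSS they were 4, 4, 8 and 21, then 14, 8, 8 and 22. These 3 alternatives hold fewer peaks or a stricter limit by construction. The shares of all peaks at these settings are not given, so the counts do not show whether the gene set stayed near all peaks. Without centring, 5mC from DP to neurons was lower at 52 peaks and higher at 5, against 32 and 14 with centring, and the other 6 counts stayed within 1.5 times. An overlap of at least 50% of the shorter peak left 35 of the 41 pairs and 6 of the 6 with lower 5mC and higher 5hmC. For expression, a pseudocount of 10 gave 42 genes lower and 13 higher from PP to neurons, a value of at least 100 in a cell type gave 40 and 11, and a 2-fold limit 38 and 12. Of the 40 alternatives 14 stayed within 1.5 times and 26 did not. The tables hold means over replicates, so no replicate could be left out and no paired analysis was possible because each value comes without its replicates.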

Other observations

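The wider list of cell cycle genes outside the symbol rule held genes of DNA synthesis, chromosome segregation and proliferation. Mki67, the standard marker of cycling cells, had expression values of 46482 (PP), 52107 (DP) and 1585 (neurons), and Top2a, the topoisomerase of mitotic chromosomes, had 23856, 34426 and 1059. Gmnn, whose product geminin blocks relicensing through Cdt1, had 1533 and 1101 in the progenitors and 52.0 in neurons. From PP to DP 2 of the 68 genes were lower and 1 was higher. The higher gene was Btg2, whose reporter defines the DP gate, so its rise was largely set by the sort. Most of the list differed between DP and neurons, where 49 were lower.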
